A study of Mus musculus with 12 samples.

Results

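The response of the liver to refeeding was followed in mice labelled LG2KO, by setting the 3 arrays titled as tamoxifen and refed against the 3 titled as tamoxifen and fasted. These are 6 of the 12 arrays of the study, and the other 6 hold fasted and refed livers of control mice. The members were chosen by title, and a gene with several probe sets was read from the brightest of them, by its mean over the 12 arrays. LG2KO is not spelled out in the labels. It is taken here to mean a liver knockout of Glut2, a glucose transporter encoded by Slc2a2. All 4 groups are liver total RNA of the strain SV129XC57Bl/6, hybridised as biotin-labelled cRNA to an Affymetrix array, with 3 arrays a group. The LG2KO fasted and LG2KO refed groups have the genotype LG2KO and were treated with tamoxifen. The control fasted and control refed groups have the genotype control, with no tamoxifen in their labels. Effects of genotype and of tamoxifen therefore cannot be told apart, while fasted and refed LG2KO livers share both. In the diet labels the fasted groups are fasted and the refed groups are fasted and then refed. A label field, the source name, calls the LG2KO fasted livers fasted/refed, and their titles and diet labels, which read fasted, were followed. Each array carried a pool of RNA of 3 animals, so n = 3 pools a group and a p-value measures how pools vary. The sources used here do not give the promoter that drives the recombination, the age and sex of the animals, or the hours of fasting and refeeding. In whole liver, fewer cells of a type and less RNA per cell cannot be told apart.

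Glut2 carries glucose across the hepatocyte membrane in both directions. After a meal, insulin raises SREBP1c, a transcription factor for fatty acid synthesis, and shuts down FOXO1, which drives glucose production in the fasted state. Glucose itself acts through ChREBP, a factor that reads glucose metabolites and binds the promoters of genes such as Pklr, the liver pyruvate kinase. Fasting has the opposite setting: glucagon and PPARalpha raise glucose production, amino acid breakdown and fat oxidation. The arrays thus follow a switch with an insulin arm and a glucose arm in livers that lack the transporter.

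The targeted gene checked the labels first. Slc2a2 stood at 4.02, 4.13 and 3.56 on the fasted arrays and 3.79, 3.64 and 3.80 on the refed ones, on the log2 scale and in the order of replicates 1, 2 and 3, as in all triplets of values that follow. On the 6 control arrays it lay between 10.002 and 11.30, so the genotype groups did not overlap. Refeeding left it at a difference of -0.16 ± 0.25 in LG2KO (adjusted p = 0.866). Where this probe set lies relative to the deleted part of the gene was not tested. Hepatocyte markers averaged 13.6 to 13.8 on the 6 LG2KO arrays, and 0 of 8 measured ones passed the test described next. LG2KO fasted replicate 3 stood apart from its group. Its lowest correlation with another array of the group was 0.984 across probe sets, beside 0.995 among the LG2KO refed arrays, and limma's array weights gave it 0.255. Control refed replicate 1, with a weight of 0.245, stood apart in the control groups.

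Refeeding changed 1283 of the 18194 genes tested in LG2KO liver, which is 7.05%. A gene counts as changed where limma's p-value, adjusted over all genes by the Benjamini-Hochberg method, is below 0.05. Of these, 847 were higher after refeeding (4.66% of all genes) and 436 were lower (2.4%). Counts of list members given below are to be read beside these shares, and a count near them is not a result about the list. The 3 refed and the 3 fasted arrays did not overlap for 1278 of the 1283, and for 4090 of all 18194 genes. The 15 largest rises and 15 largest falls named below had to meet this condition, so it is no further support for them. The median log2 fold change was 0.58 among genes that rose and -0.64 among genes that fell. A change of at least 1 on the log2 scale was reached by 124 rising and 81 falling genes. The lead of rising genes rested on LG2KO fasted replicate 3. Without it, 1507 genes passed (8.28%), 757 higher (4.16%) and 750 lower (4.12%), so the share that rose went from 66.0% to 50.2%. Of the 1283 genes, 1073 were still called. In the genes called lower, this fasted array lay 19.7% of the way towards the refed mean at the median, and in those called higher it lay at -1.76%. Leaving out another array lowered the count, to 943 without refed replicate 1, 770 without fasted 2, 716 without fasted 1, 713 without refed 2 and 697 without refed 3. In all, 556 calls, 369 up and 187 down, passed whichever of the 6 arrays was left out.

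**Figure D1:**
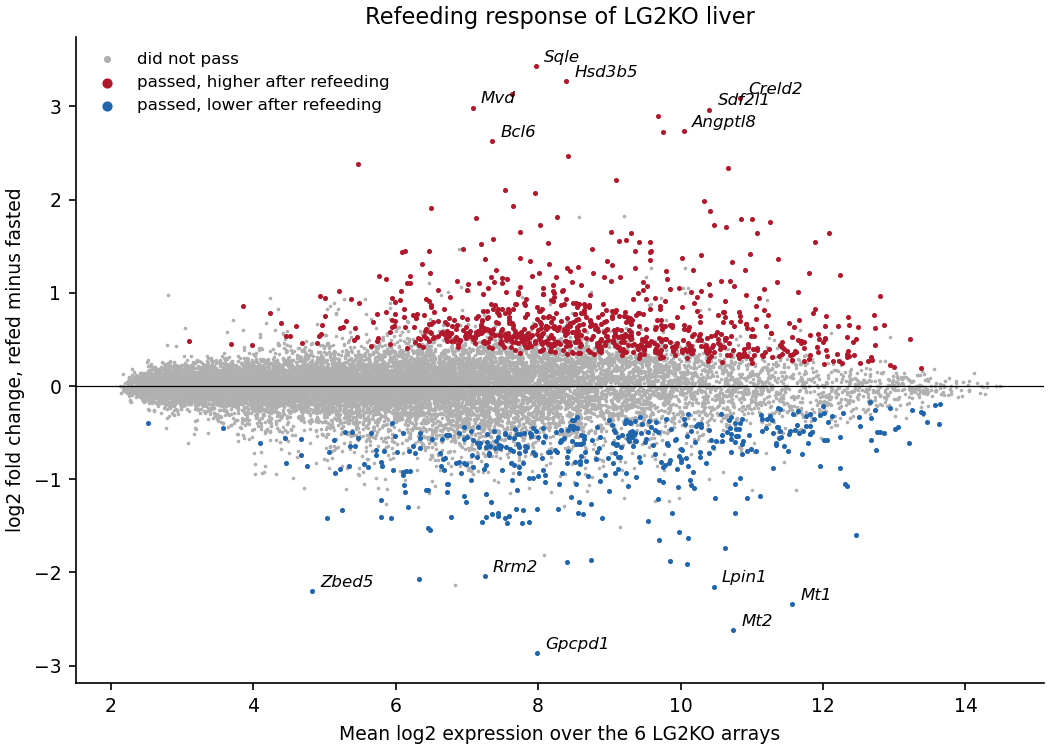
Each point is a gene, with its mean log2 expression over the 6 LG2KO arrays on the x axis and its log2 fold change, refed minus fasted, on the y axis. Red points passed and were higher after refeeding (847), blue points passed and were lower (436), and grey points did not pass. Among the largest rises, near 3, are genes of cholesterol synthesis (Sqle, Mvd) and of protein folding in the endoplasmic reticulum (Creld2, Sdf2l1).

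Pklr, the pyruvate kinase of the hepatocyte, fell on refeeding in LG2KO liver and rose in control liver. It is a textbook target of ChREBP, and the 250 bases before its start in RefSeq (GRCm38.p6, chr3:89136373-89136622, plus strand) hold the letters of a carbohydrate response element, CACGNG and CNCGTG with 5 bases between them, shown in capitals. The motif was searched on both strands, reads the same on each, and was chosen after the data were seen. It occurs in 0.0396% of 32851 promoter windows of that length. Of the 10 named ChREBP-linked genes with a window, 1 holds it, Pklr itself. No inference about binding is drawn from it.
Pklr: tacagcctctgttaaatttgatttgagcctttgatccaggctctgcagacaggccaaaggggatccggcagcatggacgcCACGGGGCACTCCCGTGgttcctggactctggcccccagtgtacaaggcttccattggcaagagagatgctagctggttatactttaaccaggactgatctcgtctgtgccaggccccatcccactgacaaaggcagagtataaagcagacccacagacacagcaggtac
Pklr stood at 10.71, 10.70 and 10.91 on the fasted arrays and 9.83, 9.97 and 10.05 on the refed ones in LG2KO. In control liver it stood at 8.82, 8.73 and 9.02 fasted and 9.57, 9.92 and 9.85 refed. The fasted LG2KO arrays were the highest of all 12, the fasted control arrays the lowest, and the refed arrays of the genotypes lay between them, with the groups of each genotype not overlapping. Pklr fell by 0.82 ± 0.12 in LG2KO, a 1.77-fold drop (adjusted p = 0.000982), and rose by 0.92 ± 0.12 in control, 1.90-fold (adjusted p = 0.000387). The difference between the responses, LG2KO minus control, was -1.75 ± 0.16 (95% interval -2.10 to -1.39, adjusted p = 0.0024). Pklr was the only gene of 18194 whose response differed between the genotypes by limma's interaction test, that is 0.0055% of genes. An unadjusted p below 0.05 was reached by 861 genes. Genes with no difference reach that threshold at a rate of 0.05, so this count neither shows nor excludes further differences. With limma's array weights 20 genes passed the interaction test. The 3 probe sets of Pklr had changes of -0.58, -0.72 and -0.82 in LG2KO. Over 20 alternative settings the difference ran from -1.85 to -1.57, with adjusted p from 5.05e-05 to 0.0171.

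Other genes linked to ChREBP also fell in LG2KO, though only Pklr of this list differed from control by the interaction test. Of 13 measured, Pklr included, 6 fell and 2 rose, with a median of -0.52 beside 0.0073 over all genes. Txnip, an arrestin-like protein that limits glucose uptake and is strongly driven by glucose, stood at 10.78, 10.53 and 10.59 on the fasted arrays and 9.80, 9.54 and 9.55 on the refed ones. Its fasted and refed arrays were apart, and it fell by 1.003 ± 0.13 (adjusted p = 0.000569). Arrdc4, its relative, fell by 0.71 ± 0.13, and in control it fell as well, by 0.89 ± 0.13 (adjusted p = 0.00106). G6pc, the catalytic subunit that releases free glucose from glucose 6-phosphate, fell by 1.05 ± 0.15 in LG2KO. Klf10, a zinc finger repressor induced by glucose, was lower by 1.42 ± 0.38 (adjusted p = 0.0417), and Slc2a5, the fructose transporter, by 0.52 ± 0.14 (adjusted p = 0.046). Klf10 missed the threshold when any 1 array other than fasted 3 was left out, and Slc2a5 missed the threshold when any 1 array other than fasted 1 was left out. The 2 that rose were Pnpla3, a lipid droplet protein that SREBP1c also drives, by 0.92 ± 0.15, and Mlx, the DNA-binding partner of ChREBP, by 0.60 ± 0.11. Mlxipl, which encodes ChREBP, was at 0.39 ± 0.13 (adjusted p = 0.105, and 0.0226 without refed 3), Khk, the fructose kinase, at -0.20 ± 0.08 (adjusted p = 0.209), and Fgf21, a fasting hormone that glucose also raises, at -0.59 ± 0.36 (adjusted p = 0.475). With 1 array left out, the number of the 13 that fell was 4 without refed 1, 2 or 3 or fasted 2, 5 without fasted 3 and 6 without fasted 1. In control liver 4 of the 13 rose and 2 fell, with a median of 0.19. Glycolysis enzymes gave 1 call among 17, Pklr itself, and without fasted replicate 3 gave 2. Pfkl, the liver phosphofructokinase, was at 0.30 ± 0.13 (adjusted p = 0.209).

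The lipogenic arm was divided in LG2KO. Srebf1, which encodes SREBP1c, and Fasn, the fatty acid synthase, rose clearly, while Acly, Acaca and Elovl6 did not pass. Srebf1 stood at 11.28, 11.23 and 11.28 on the fasted arrays and 12.84, 13.06 and 12.84 on the refed ones, with a gap of more than 1 unit between the groups. It rose by 1.65 ± 0.10 (adjusted p = 3.13e-06). Fasn stood at 10.09, 10.32 and 10.33 on the fasted arrays and 11.77, 11.79 and 12.12 on the refed ones, again without overlap, and rose by 1.65 ± 0.16 (adjusted p = 5.86e-05). Mid1ip1, which helps acetyl-CoA carboxylase to polymerise, rose by 1.33 ± 0.10. With Pnpla3 these were the 4 of 20 measured genes of the list that rose, and 0 fell. The median of the list was 0.23, and 0.09 without fasted replicate 3.

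Elovl6, which lengthens palmitate, stood at 8.74, 8.40 and 7.91 on the fasted arrays and 8.32, 8.62 and 8.94 on the refed ones, and the groups overlapped. The change was 0.28 ± 0.27 (adjusted p = 0.716). In control liver it went from 5.91, 6.41 and 6.79 to 8.92, 8.62 and 8.19, so fasted LG2KO livers already stood near the level of refed controls. The difference between the responses was -1.93 ± 0.38 (95% interval -2.75 to -1.10), with an adjusted p of 0.265. Acly, the ATP citrate lyase that supplies acetyl-CoA, stood at 10.63, 11.06 and 10.82 on the fasted arrays and 10.78, 10.65 and 10.89 on the refed ones. It changed by -0.07 ± 0.13 (adjusted p = 0.904), and its difference from the control response was -1.23 ± 0.19 (adjusted p = 0.13). In control liver it went from 9.56, 9.62 and 9.93 to 10.71, 10.84 and 11.04, so fasted LG2KO livers again stood near refed controls. Acaca, the acetyl-CoA carboxylase, was at 0.24 ± 0.11 (adjusted p = 0.294). Its mean was 9.86 in fasted LG2KO liver, beside 8.82 in fasted and 9.76 in refed control liver. For Fasn the difference was -0.995 ± 0.22 (adjusted p = 0.409) and for Mid1ip1 -0.91 ± 0.14 (adjusted p = 0.13). None of these 4 differences passed over all genes, and all 4 passed with limma's array weights, which give less weight to arrays that stand apart. In control liver 9 of the 20 rose, with a median of 0.31. None of 11 genes of the pentose phosphate and NADPH list passed in LG2KO, among them Pgd at 0.41 ± 0.14 (adjusted p = 0.105) and Tkt, transketolase, at 0.04 ± 0.09 (adjusted p = 0.908), while 5 rose in control. Without fasted replicate 1, 1 gene of that list fell. The mean level of the list was 9.84 to 9.92 on the LG2KO fasted arrays. In control it was 9.40 to 9.53 on the fasted arrays and 9.71 to 9.81 on the refed ones.

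**Figure D2:**
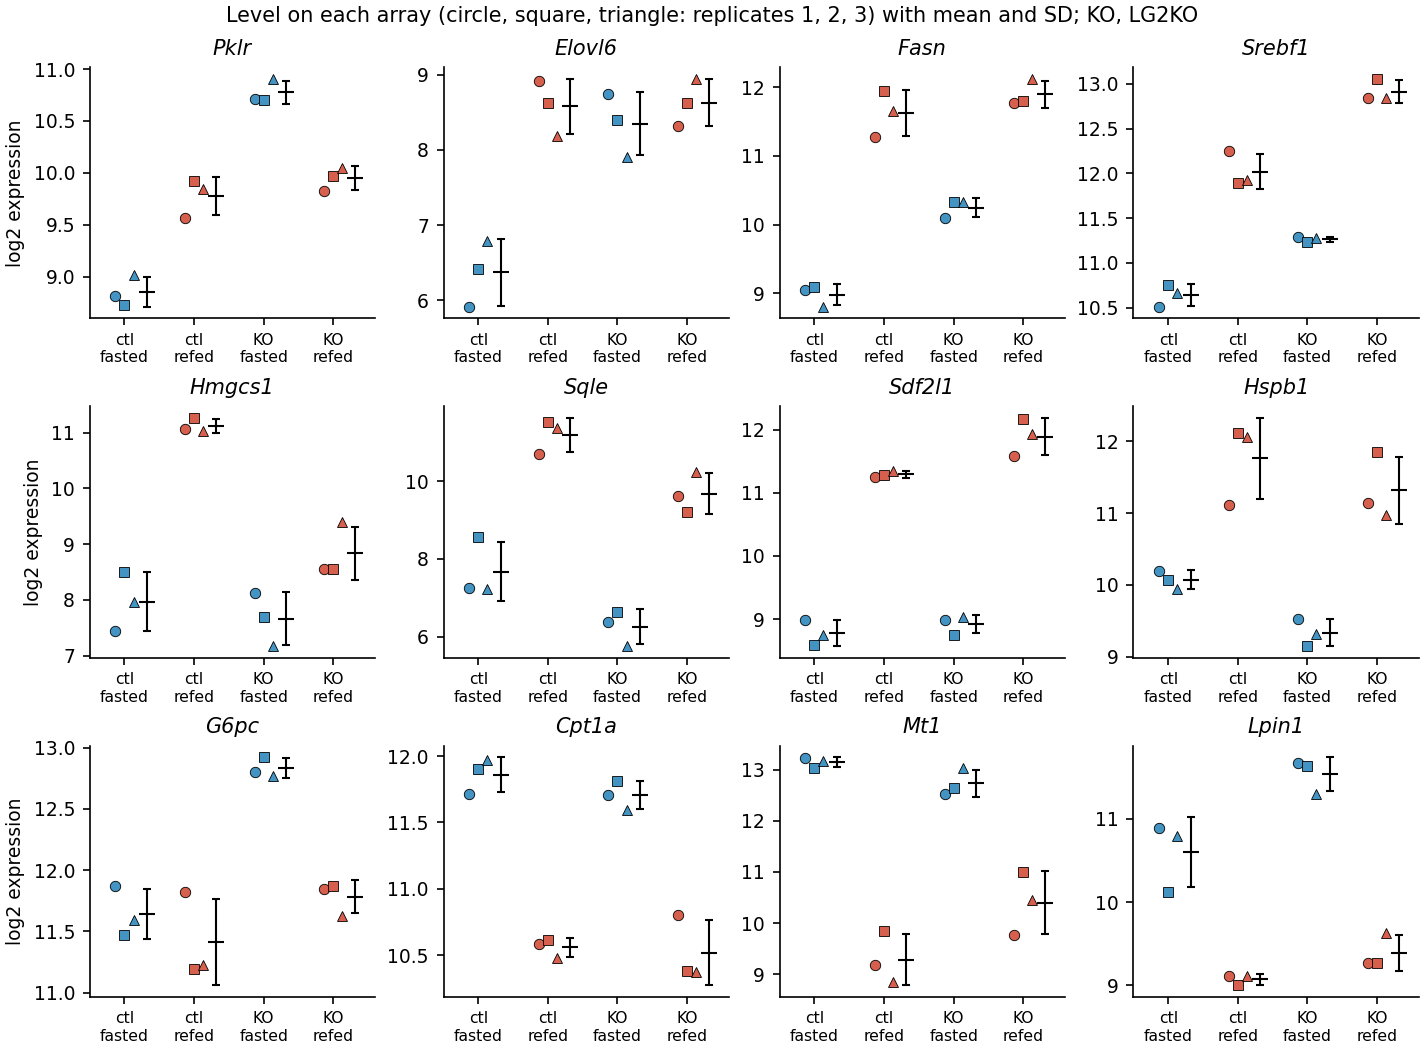
The log2 level of 12 genes is plotted for every array in the 4 groups, with circles, squares and triangles for replicates 1, 2 and 3 and bars for the mean and SD of the 3 arrays. Pklr is highest on the fasted LG2KO arrays (10.70 to 10.91) and moves the opposite way in the genotypes, Elovl6 moves little in LG2KO, and Hspb1, Cpt1a and Lpin1 move the same way in both.

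Cholesterol synthesis held the largest rise of the comparison. Sqle, the squalene epoxidase, stood at 6.38, 6.62 and 5.75 on the fasted arrays and 9.63, 9.20 and 10.23 on the refed ones, with every refed array above every fasted one, and rose by 3.43 ± 0.38 or 10.8-fold (adjusted p = 0.000177). Mvd, which makes the isoprenoid unit, rose by 2.99 ± 0.31, Fdps, the farnesyl diphosphate synthase, by 2.73 ± 0.35, and Lss, which closes the sterol ring, by 2.08 ± 0.29. Fdps had probe sets of both signs. Cyp51 and Msmo1, demethylases of the later pathway, rose by 1.80 ± 0.31 and 1.66 ± 0.26. The entry enzyme Hmgcs1 stood at 8.12, 7.70 and 7.17 on the fasted arrays and 8.55, 8.56 and 9.39 on the refed ones and was higher by 1.17 ± 0.30 (adjusted p = 0.0316). Its groups did not overlap, but the gap between the highest fasted and lowest refed array was small beside the spread. Hmgcs1 missed the threshold when any 1 array other than fasted 1 or refed 1 was left out. In all, 13 of 18 measured genes rose and 0 fell, with a median of 1.17. The count depended on every array: it was 6 without refed 3, 7 without fasted 2 or 3, and 8 without refed 1, refed 2 or fasted 1. Without fasted 3, 1 gene of the list also fell. Idi1, the isomerase, stood at 6.14, 6.05 and 5.58 on the fasted arrays and 6.61, 7.19 and 7.26 on the refed ones with a change of 1.10 ± 0.32 (adjusted p = 0.0576).

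The Hmgcs1 promoter is shown because it carries in capitals the letters of a sterol response element, TCACNCCAC, together with CCAAT, the site of the partner factor NF-Y (GRCm38.p6, chr13:119690101-119690350, plus strand, with either motif on either strand and no overlap between them). The first occurs in 1.05% of all windows and the other in 33.8%.
Hmgcs1: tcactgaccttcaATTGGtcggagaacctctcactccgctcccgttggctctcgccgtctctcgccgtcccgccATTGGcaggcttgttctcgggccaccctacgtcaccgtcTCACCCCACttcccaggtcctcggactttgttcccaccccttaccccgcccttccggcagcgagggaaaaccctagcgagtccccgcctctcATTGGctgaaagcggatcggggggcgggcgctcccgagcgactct
Of the 8 named members of the list, 6 had a promoter in the RefSeq table, 1 with TCACNCCAC and 6 with CCAAT. In control liver 15 of the 18 genes rose, with a median of 2.11. Hmgcs1 rose there by 3.16 ± 0.30, and the difference between the responses was -1.98 ± 0.42 (95% interval -2.89 to -1.07, adjusted p = 0.369), which did not pass. The median of the differences over the list was -0.66, and 16 of 18 were negative, with 0 passing.

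Genes that regulate sterols moved in both directions, with 4 of 15 higher and 5 lower. Insig1, which holds the SREBP proteins in the endoplasmic reticulum and is itself a target of them, stood at 8.27, 8.34 and 7.38 on the fasted arrays and 10.42, 9.96 and 10.23 on the refed ones and rose by 2.21 ± 0.23 (adjusted p = 0.00014). Stard4, a cytosolic sterol carrier, rose by 1.91 ± 0.26 and Nr1h3, the oxysterol receptor LXRalpha, by 0.67 ± 0.10. Srebf2, which encodes SREBP2, was higher by 0.60 ± 0.13 (adjusted p = 0.016). Srebf2 missed the threshold when any 1 array other than fasted 3 or refed 2 was left out. The genes that fell were Abcg5 (-0.85) and Abcg8 (-0.59), the pair that pumps sterols into bile, Npc1 (-0.77), which releases cholesterol from lysosomes, Scarb1, the HDL receptor, and Mylip, a ubiquitin ligase that acts on lipoprotein receptors. Insig2, the form linked to fasting, was at -0.39 ± 0.14 (adjusted p = 0.12).

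Chaperones and enzymes that fold proteins in the endoplasmic reticulum (ER) rose together in refed LG2KO liver. Of 22 measured, 14 rose and 0 fell, with a median of 0.90, and the count stayed between 13 and 15 whichever array was left out. Sdf2l1, a partner of the ER chaperone complex, stood at 8.98, 8.76 and 9.03 on the fasted arrays and 11.57, 12.16 and 11.94 on the refed ones and rose by 2.97 ± 0.14 or 7.82-fold (adjusted p = 1.12e-06). Creld2, a secreted ER stress protein, stood at 9.59, 9.33 and 8.95 on the fasted arrays and 11.95, 12.71 and 12.47 on the refed ones and rose by 3.09 ± 0.19 (adjusted p = 3.13e-06). In both genes the refed arrays lay more than 2 units above the fasted ones. Hyou1 and Pdia4, a chaperone of the Hsp70 family and a disulfide isomerase, rose by 1.79 ± 0.12 and 1.42 ± 0.09, Manf, a secreted ER protein, by 1.54 ± 0.11, and Calr, calreticulin, by 0.76 ± 0.07. Hspa5, which encodes BiP, the main chaperone of the ER, stood at 11.77, 11.20 and 10.62 on the fasted arrays and 12.12, 12.58 and 12.54 on the refed ones and rose by 1.22 ± 0.24 (adjusted p = 0.00933). Derl3, which helps to draw misfolded proteins out of the ER and is outside the list, rose by 2.90 ± 0.29. Hsp90b1 was at 1.26 ± 0.35 (adjusted p = 0.0501, but 0.0382 without refed 1 and 0.0133 without fasted 1), Dnajb9 at -0.14 ± 0.33 (adjusted p = 0.922), and Xbp1, the factor of the unfolded protein response, was higher by 0.28 ± 0.06 (adjusted p = 0.0147). Xbp1 missed the threshold without refed 2 or fasted 1. In control liver the same number, 14, rose, with a median of 0.74.

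Creld2 and Hspa5 are shown as members of this group whose promoters hold the ER stress element, CCAAT and CCACG with 9 bases between them on either strand, in capitals (GRCm38.p6, chr15:88819396-88819645 and chr2:34771840-34772089, both plus strand). In Creld2 it is read on the opposite strand. The motif was chosen after the data were seen.
Creld2: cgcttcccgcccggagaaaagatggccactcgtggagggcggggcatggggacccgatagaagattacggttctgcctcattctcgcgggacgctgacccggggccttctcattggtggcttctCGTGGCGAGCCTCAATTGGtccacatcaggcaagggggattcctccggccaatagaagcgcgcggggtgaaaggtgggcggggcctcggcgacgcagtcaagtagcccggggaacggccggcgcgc
Hspa5: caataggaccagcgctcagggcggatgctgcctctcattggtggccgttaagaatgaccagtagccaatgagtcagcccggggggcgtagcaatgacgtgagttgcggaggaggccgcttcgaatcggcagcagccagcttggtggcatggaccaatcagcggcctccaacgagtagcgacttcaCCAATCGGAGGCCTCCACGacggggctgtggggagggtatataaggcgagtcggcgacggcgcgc
It occurs in 0.113% of all windows, which is 37 of 32851, and in 4 of the 8 named ER folding genes that had a window: Creld2, Hspa5, Calr and Hsp90b1. A match describes letters in a window and is not a measured site.

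Cytosolic chaperones rose in part. Of 18 heat shock genes 7 rose and 0 fell (median 0.43), and without fasted replicate 3 or refed 3 the count was 4, without refed 2 it was 3. Hspb1, a small heat shock protein, stood at 9.53, 9.15 and 9.31 on the fasted arrays and 11.14, 11.85 and 10.97 on the refed ones and rose by 1.99 ± 0.26 (adjusted p = 0.000611), without overlap. Hsph1, a nucleotide exchange factor of Hsp70, rose by 1.81 ± 0.26, and Dnajb1, its co-chaperone, rose by 0.83 ± 0.16. Hsp90aa1, inducible Hsp90, was higher by 1.58 ± 0.40 (adjusted p = 0.0331), with probe sets of both signs. Hsp90aa1 missed the threshold when any 1 array other than fasted 1 or refed 1 was left out. Hspa1a and Hspa1b, the inducible Hsp70 genes, were at 0.86 ± 0.36 (adjusted p = 0.209) and 1.27 ± 0.42 (adjusted p = 0.103). They are near-identical copies, so their probe sets may not separate them. Cirbp, the cold-inducible RNA-binding protein, stood at 9.24, 9.40 and 9.41 on the fasted arrays and 7.85, 7.04 and 7.51 on the refed ones, with all refed arrays below all fasted ones. It fell by 1.88 ± 0.19 (adjusted p = 8.09e-05), opposite to the heat shock genes.

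Genes that charge tRNAs rose in part: 6 of 19 synthetases passed upwards and 0 fell (median 0.34), and the count was 4 without refed 2, refed 3 or fasted 1. Aars, the alanine enzyme, stood at 10.67, 10.63 and 10.59 on the fasted arrays and 11.42, 11.47 and 11.57 on the refed ones and rose by 0.86 ± 0.07 (adjusted p = 2.08e-05). Its groups did not overlap. Farsa, Cars and Wars rose by 0.72 ± 0.10, 0.62 ± 0.12 and 0.61 ± 0.10, with probe sets of both signs for Farsa. In the proteasome 6 of 30 subunits rose (median 0.19, and 0.07 without fasted 3). They were led by Psmc5 at 0.41 ± 0.08 and Psmd4 at 0.34 ± 0.07, with probe sets of both signs for Psmd4. The count was 4 without fasted 1 or 3, 3 without refed 3 or fasted 2, and 2 without refed 2. Within the integrated stress response 3 of 20 rose and 3 fell. Atf5 and Ddit3, transcription factors of that response, rose by 0.83 ± 0.12 and 0.82 ± 0.12, and Trib3, a pseudokinase that restrains Akt, fell by 0.64 ± 0.13. Asns, the asparagine synthetase, was at 0.15 ± 0.46 (adjusted p = 0.945). The number of that list that fell was 1 without refed 1, refed 2 or fasted 1.

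Growth-related genes changed singly rather than as lists. Cad, which starts pyrimidine synthesis, stood at 6.41, 6.69 and 6.34 on the fasted arrays and 8.30, 8.82 and 8.63 on the refed ones. It rose by 2.10 ± 0.14 (adjusted p = 5.62e-06), with probe sets of both signs. Tubb2a, a beta tubulin, stood at 9.23, 9.60 and 9.67 on the fasted arrays and 11.90, 11.84 and 11.76 on the refed ones and rose by 2.34 ± 0.15 (adjusted p = 3.93e-06). Both were above every fasted array on every refed one. Ccnd1, cyclin D1, rose by 1.45 ± 0.22, whereas Myc fell by 1.41 ± 0.26 and Rrm2, which with Rrm1 makes deoxyribonucleotides, by 2.04 ± 0.30 (adjusted p = 0.00124). Rrm2 stood at 8.36, 8.63 and 7.82 on the fasted arrays and 6.14, 6.69 and 5.86 on the refed ones. In control it changed by -0.17 ± 0.30 (adjusted p = 0.891), and the difference between the responses was -1.88 ± 0.42 (adjusted p = 0.409). Of 35 ribosome biogenesis genes 3 rose, among them Bop1 (0.66, with probe sets of both signs) and Mybbp1a (0.61), and 1 fell. Without fasted replicate 3 the counts were 4 and 3. None of 20 cytosolic ribosomal proteins passed, 2 of 21 translation factors rose and 1 fell, and 1 of 24 cell cycle genes rose and 1 fell. Over all genes tested 4.66% rose and 2.4% fell. Among translation factors 0 passed without refed 2, refed 3 or fasted 1, 1 rose without refed 1 or fasted 2, and 2 rose and 0 fell without fasted 3. The cell cycle count of falling genes was 2 without fasted 1.

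**Figure D3:**
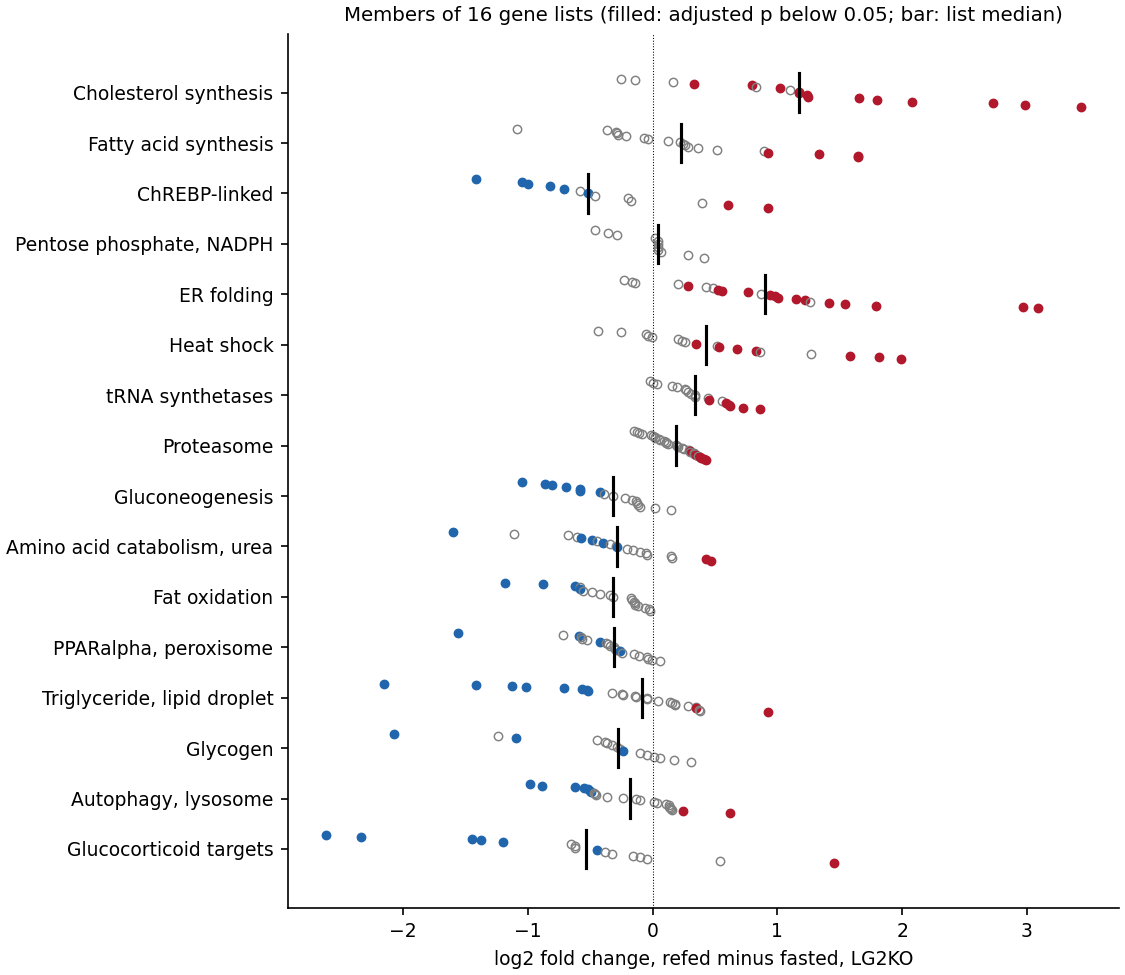
Each row of points is a gene list, each point a measured member placed by its log2 fold change, refed minus fasted, in LG2KO, and the bar is the list's median. Filled points passed (red higher, blue lower). Cholesterol synthesis and ER folding have medians of 1.17 and 0.90, and the ChREBP-linked, gluconeogenesis, fat oxidation and glucocorticoid lists have medians below 0.

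Where genes of glucose production passed, they fell. Of 17 measured, 7 fell and 0 rose, with a median of -0.32, and in control liver 7 fell with a median of -0.34. G6pc stood at 12.80, 12.92 and 12.77 on the fasted arrays and 11.85, 11.87 and 11.63 on the refed ones, without overlap, and fell by 1.05 ± 0.15 (adjusted p = 0.00117). Slc37a4, which carries glucose 6-phosphate to G6pc, fell by 0.69 ± 0.10, Gpt2, a mitochondrial transaminase that feeds pyruvate, fell by 0.86 ± 0.10, and Foxo1, the factor that insulin switches off, by 0.81 ± 0.13. Pck1, the cytosolic carboxykinase, stood at 13.04, 12.97 and 12.86 on the fasted arrays and 12.56, 12.24 and 12.33 on the refed ones, and was lower by 0.58 ± 0.16 (adjusted p = 0.0429), with probe sets of both signs. Pck1 missed the threshold when any 1 array other than refed 1 was left out. Ppargc1a, its fasting coactivator, was lower by 0.58 ± 0.13 (adjusted p = 0.0185). Ppargc1a missed the threshold when any 1 array other than fasted 3 or refed 1 was left out. Fbp1, fructose bisphosphatase, was at -0.11 ± 0.04 (adjusted p = 0.0882). The list's count was 4 without refed 2 or fasted 2, and its median was -0.20 without refed 3. For G6pc the control response was -0.23 ± 0.15 and the difference between the responses -0.82 ± 0.21 (adjusted p = 0.574), which did not pass.

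Amino acid breakdown gave 5 falls and 2 rises among 20 genes, with a median of -0.29. Got1, the cytosolic aspartate transaminase, stood at 13.27, 13.31 and 13.20 on the fasted arrays and 11.87, 11.76 and 11.33 on the refed ones and fell by 1.60 ± 0.15 (adjusted p = 5.43e-05), with a gap of more than 1 unit. Hal, which opens histidine breakdown, fell by 0.58 ± 0.10 and Prodh, the proline oxidase, by 0.49 ± 0.09. Cbs, which turns homocysteine into cystathionine, rose by 0.47 ± 0.06. Tat and Tdo2, classic glucocorticoid-driven enzymes, were at -0.04 ± 0.11 (adjusted p = 0.931) and -1.11 ± 0.43 (adjusted p = 0.17). Without fasted 3, Tdo2 passed at -1.56 (adjusted p = 0.0347). The number that fell was 3 without refed 3, fasted 1 or fasted 2, and 7 were lower without fasted 3, and 1 rather than 2 rose without refed 2, refed 3, fasted 1 or fasted 2.

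Of 19 fat oxidation genes, 4 fell and 0 rose, and 19 had values below 0 while 9400 of the 18194 genes tested were above it (median -0.32). Cpt1a, which admits fatty acids to the mitochondrion, stood at 11.71, 11.81 and 11.60 on the fasted arrays and 10.81, 10.38 and 10.38 on the refed ones and fell by 1.18 ± 0.11 (adjusted p = 6.83e-05). Its arrays did not overlap between groups. Slc25a20, the carnitine carrier, fell by 0.58 ± 0.08 and Eci2, an enoyl-CoA isomerase, by 0.88 ± 0.09. Etfdh, which passes electrons from fat oxidation to ubiquinone, was lower by 0.62 ± 0.17 (adjusted p = 0.0478), with probe sets of both signs. Etfdh missed the threshold when any 1 array other than fasted 3 was left out. Pdk4, the kinase that spares pyruvate in fasting, was at -0.42 ± 0.28 (adjusted p = 0.532) and Acadm, the medium-chain dehydrogenase, at -0.56 ± 0.19 (adjusted p = 0.118). Without fasted 3, Acadm passed at -0.72 ± 0.20 (adjusted p = 0.0445). The number of the 19 that fell was 6 without fasted 3 and 3 without any 1 of the other arrays. In the PPARalpha and peroxisome list 4 of 21 fell and 0 rose (median -0.31), but the count was 0 without refed 2 or fasted 2 and 1 without refed 3 or fasted 1. Ppara itself was at -0.34 ± 0.28 (adjusted p = 0.648). Of 29 subunits of oxidative phosphorylation 5 fell (median -0.12, and -0.08 without refed 3), among them Ndufa9 by 0.30 ± 0.06, and the count was 0 without refed 3, fasted 1 or fasted 2 and 1 without refed 2.

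Genes of triglyceride handling fell more often than they rose, 8 against 2 of 26, with a median of -0.09, or -0.13 without fasted 1. Lpin1, a phosphatidate phosphatase and coactivator of fat oxidation, stood at 11.68, 11.64 and 11.30 on the fasted arrays and 9.27, 9.26 and 9.63 on the refed ones and fell by 2.15 ± 0.18 (adjusted p = 2.81e-05). Pnpla2, the adipose triglyceride lipase, stood at 10.21, 10.12 and 10.29 on the fasted arrays and 9.19, 9.20 and 9.19 on the refed ones and fell by 1.01 ± 0.10 (adjusted p = 7.2e-05). In both genes every refed array lay below every fasted one. Lpin2 fell by 1.12 ± 0.22, Gpat4, an acyltransferase, by 0.56 ± 0.09, and Fitm2, which helps to form lipid droplets, by 0.53 ± 0.10. The falling count was 5 without refed 1, refed 3 or fasted 2, and 1 rather than 2 rose without refed 2, refed 3, fasted 1 or fasted 2. Gpam and Dgat2, enzymes that build triglyceride, were at 0.37 ± 0.15 (adjusted p = 0.187) and 0.14 ± 0.04 (adjusted p = 0.0811). Of the secreted regulators, Angptl8, which feeding induces and which restrains lipoprotein lipase, stood at 8.78, 8.57 and 8.68 on the fasted arrays and 11.37, 11.97 and 10.90 on the refed ones and rose by 2.73 ± 0.33 (adjusted p = 0.000366). Angptl4, the fasting counterpart, stood at 11.45, 11.45 and 11.44 on the fasted arrays and 10.08, 9.71 and 10.46 on the refed ones and fell by 1.37 ± 0.20 (adjusted p = 0.0012). The pair thus moved in opposite directions, with no overlap of arrays in either.

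Among 17 secreted factors only Angptl8 and Inhbc, an activin subunit made by hepatocytes, rose (Inhbc by 1.55 ± 0.15), and Angptl4 fell. Igfbp1, a binding protein that insulin lowers, was at -0.81 ± 0.59 (adjusted p = 0.581), with arrays at 12.07, 11.89 and 11.61 fasted and 11.20, 10.75 and 11.18 refed, which do not overlap. Its standard error comes from a spread shared by all 12 arrays, the control arrays included, so a lack of response in LG2KO is not shown. Of 16 apolipoprotein genes 1 passed, Apoa5, lower by 0.27 ± 0.05. In the insulin signalling list 3 of 20 rose and 3 fell, the latter being Foxo1, Insr and Pdk1. Pdk1 is the symbol of a pyruvate dehydrogenase kinase and not of the insulin pathway kinase of similar name, so its fall is not one of insulin signalling. Igfals, which carries IGF1 in blood, rose by 0.95 ± 0.09, and Akt1, a kinase of the pathway with probe sets of both signs, rose by 0.58 ± 0.09. Insr, the insulin receptor, stood at 8.59, 8.27 and 7.55 on the fasted arrays and 6.73, 6.75 and 6.76 on the refed ones and fell by 1.39 ± 0.26 (adjusted p = 0.00676), also with probe sets of both signs. Irs2 was at -0.19 ± 0.19 (adjusted p = 0.73) and Irs1 at 0.29 ± 0.25 (adjusted p = 0.664). Without fasted replicate 3, 5 genes of the list fell in place of 3.

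Glycogen genes gave 3 falls among 16, with 2 without refed 1, 2 or 3 or fasted 1 or 2, and 5 without fasted replicate 3. Ppp1r3g, a glycogen-targeting subunit of protein phosphatase 1, stood at 7.32, 7.18 and 7.57 on the fasted arrays and 5.10, 5.27 and 5.48 on the refed ones and fell by 2.07 ± 0.22 (adjusted p = 0.000135). Gys2, the liver glycogen synthase, stood at 10.95, 10.83 and 10.44 on the fasted arrays and 9.84, 9.52 and 9.57 on the refed ones and fell by 1.10 ± 0.17 (adjusted p = 0.00179). Both lay lower on every refed array. Pygl, the liver phosphorylase, was at -0.33 ± 0.12 (adjusted p = 0.131). Of 11 hexose transporters 1 passed, Slc2a5, which passed only with all 6 arrays or without fasted 1. Slc2a1, which encodes Glut1, was at 0.22 ± 0.11 (adjusted p = 0.362).

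Glucocorticoid-linked genes fell, 6 of 16, and 1 rose (median -0.53). The metallothioneins Mt1 and Mt2, small metal-binding proteins, had the largest falls of the list. Mt1 stood at 12.53, 12.65 and 13.03 on the fasted arrays and 9.76, 10.99 and 10.46 on the refed ones and fell by 2.33 ± 0.28 (adjusted p = 0.00038). Mt2 stood at 11.78, 11.87 and 12.51 on the fasted arrays and 8.51, 10.17 and 9.62 on the refed ones and fell by 2.62 ± 0.32 (adjusted p = 0.000402). In each of them the refed arrays lay apart from and below the fasted ones, and they spread by more than 1 unit. Fkbp5, a chaperone that dampens the glucocorticoid receptor, fell by 1.45 ± 0.22, Zbtb16, a zinc finger repressor, by 1.37 ± 0.24, and Errfi1, an inhibitor of the EGF receptor, by 0.44 ± 0.07. Tsc22d3 and Per1, further targets of the receptor, were at -0.10 ± 0.20 (adjusted p = 0.9) and -0.62 ± 0.17 (adjusted p = 0.0519). Gadd45a, the rising gene, was higher by 1.45 ± 0.35 (adjusted p = 0.0246). Gadd45a missed the threshold when any 1 array other than refed 3 was left out. Gadd45g, its relative, fell by 1.63 ± 0.30.

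Autophagy genes fell more often than they rose, 7 of 24 against 2 (median -0.18). Wipi1, which marks forming autophagosomes, stood at 8.28, 8.56 and 8.23 on the fasted arrays and 7.49, 7.18 and 7.46 on the refed ones and fell by 0.99 ± 0.15 (adjusted p = 0.00193), without overlap. Ulk1, the kinase that starts the process, fell by 0.62 ± 0.11, Map1lc3b and Gabarapl1, which coat the membrane, by 0.50 ± 0.08 and 0.52 ± 0.08, and Bnip3, a receptor for mitochondria, by 0.88 ± 0.17. Tfeb, the master factor of lysosomes, was at 0.01 ± 0.11 (adjusted p = 0.981). The number that rose was 0 without refed 2, refed 3, fasted 1 or fasted 2 and 1 without fasted 3. Of 18 clock genes 3 were lower and 1 higher. Ciart, a repressor of the clock, fell by 1.32 ± 0.24, and Tef, a clock output factor with probe sets of both signs, fell by 0.41 ± 0.08. Arntl, Clock and Per2 were at 0.37 ± 0.16 (adjusted p = 0.233), -0.04 ± 0.13 (adjusted p = 0.944) and 0.06 ± 0.20 (adjusted p = 0.948). Nr1d1, the rising gene, missed the threshold when any 1 array other than fasted 3 or refed 3 was left out.

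In bile acid metabolism 2 of 18 genes rose and 4 fell. Cyp8b1, which makes cholic acid, stood at 12.72, 12.90 and 12.995 on the fasted arrays and 11.73, 12.05 and 11.62 on the refed ones and fell by 1.07 ± 0.15 (adjusted p = 0.0012). Nr0b2, which encodes the bile acid-responsive repressor SHP, stood at 9.47, 9.53 and 9.02 on the fasted arrays and 10.80, 10.63 and 10.72 on the refed ones and rose by 1.38 ± 0.22 (adjusted p = 0.00203). The groups of neither gene overlapped. Slc10a1, the bile acid uptake carrier, and Abcb4, the phospholipid exporter of bile, fell by 0.46 ± 0.08 and 0.69 ± 0.13, and Hsd3b7, a step of the synthesis, rose by 0.44 ± 0.08. Cyp7a1, the rate-limiting enzyme, stood at 10.35, 8.91 and 8.49 on the fasted arrays and 8.05, 8.90 and 7.62 on the refed ones, with overlap, and changed by -1.06 ± 0.55 (adjusted p = 0.354). Nr1h4, which encodes the bile acid receptor FXR, was at -0.68 ± 0.20 (adjusted p = 0.0577), and passed without fasted 3 at -0.85 (adjusted p = 0.0221).

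Other large rises belonged to steroid and retinoid metabolism and to transcription. Hsd3b5, a male-biased hydroxysteroid dehydrogenase, stood at 6.99, 7.19 and 6.08 on the fasted arrays and 10.01, 9.48 and 10.60 on the refed ones and rose by 3.27 ± 0.34 (adjusted p = 0.000123). Bcl6, a repressor of fasting lipid genes and of sex-biased genes, stood at 5.89, 6.56 and 5.67 on the fasted arrays and 8.84, 9.06 and 8.12 on the refed ones and rose by 2.63 ± 0.42 (adjusted p = 0.00236). Every refed array exceeded every fasted one in both, which was required of the largest rises named. Cyp26a1, which clears retinoic acid, rose by 2.47 ± 0.23 and Serpina9, a protease inhibitor, by 2.38 ± 0.15. In the remaining sex-biased list Acot3 and Cyp2d9 were lower, 0 of 13 fell without refed 3 or any fasted array, and 1 without refed 1. Elovl3, an elongase of that list, was at -1.09 ± 0.70 (adjusted p = 0.503). Of 33 nuclear receptors and cofactors 4 rose, with Nr2f6 at 0.79 ± 0.10, and 4 fell, with Ppargc1b at -0.74. The number that fell was 1 without refed 2, refed 3 or fasted 1, and 2 without fasted 2. Among 25 liver transcription factors 3 rose, with Foxa3 at 0.65 ± 0.13, and 3 were lower, but 0 without refed 1, fasted 1 or fasted 2 and 1 without refed 2 or 3. Hnf4a, the main hepatocyte factor, was at -0.14 ± 0.08 (adjusted p = 0.417).

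The largest fall was that of Gpcpd1, which breaks down glycerophosphocholine. It stood at 11.01, 9.19 and 8.06 on the fasted arrays and 6.44, 6.42 and 6.79 on the refed ones and fell by 2.87 ± 0.57 or 7.30-fold (adjusted p = 0.00903). Its groups did not overlap, which was required of the largest falls named, and the fasted arrays spread widely. Mfsd2a, a carrier of lysophosphatidylcholine that fasting induces, stood at 10.70, 11.34 and 11.08 on the fasted arrays and 9.29, 8.81 and 9.28 on the refed ones and fell by 1.91 ± 0.18 (adjusted p = 5.6e-05). Upp2, a uridine phosphorylase, fell by 1.88 ± 0.36, Zbed5, a zinc finger protein, by 2.20 ± 0.26, Nlrp12, an NLR family member, by 1.65 ± 0.12, and Krt23, a keratin, by 1.54 ± 0.22. Rgs16, a G protein regulator, was lower by 1.73 ± 0.41 (adjusted p = 0.0224). Rgs16 missed the threshold when any 1 array other than fasted 3 or refed 1 was left out.

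The remaining lists gave few calls, where 4.66% of all genes rose and 2.4% fell. Amino acid transporters were split, with 3 of 19 lower, among them Slc7a2 and Slc43a1, carriers of cationic and of branched-chain amino acids (-1.08 and -0.93). The number that was higher was 3, but 1 without refed 1 or fasted 2 and 0 without refed 2, refed 3 or fasted 1. Of 17 interferon genes, Oasl1 and Bst2 rose, by 1.07 ± 0.16 and 0.55 ± 0.09, and 4 were higher without refed 2. Of 25 acute phase genes Il6ra, the interleukin 6 receptor, fell by 1.03 ± 0.15, with Saa1 at 0.16 ± 0.51 (adjusted p = 0.945), and 1 rose without refed 1. Among conjugating enzymes Gsta2 and Gstt2 fell by 0.60 ± 0.11 and 0.63 ± 0.12, and 1 of 20 was higher, but 0 when any 1 array other than fasted 3 was left out. Of 23 drug-metabolising P450 genes 3 rose and 2 were lower. The rising count was 1 without refed 2 and 5 without fasted 3, and 0 fell without refed 1, refed 3, fasted 1 or fasted 2. In the growth arrest list 1 of 15 rose and 2 fell, the Cdk inhibitor Cdkn2c by 0.69 ± 0.12 and Gadd45g, and 4 fell without fasted 3. Markers of macrophages (14 measured), endothelium (12), bile duct (7), lymphocytes with neutrophils (15), adipose tissue (5) and exocrine pancreas (9) gave 0 calls, stellate cells gave 1 rise of 12 (Pdgfrb) and erythroid cells 1 fall of 5 (Car1). Pdgfrb missed without refed 2, refed 3, fasted 1 or fasted 2, and without fasted 3 the hepatocyte, macrophage and endothelium markers each had 1 fall. Pancreas markers averaged 5.13 to 5.39 on the 6 LG2KO arrays. On control fasted replicate 3 they averaged 7.92, beside 5.17 to 5.36 on the other control arrays. That array is part of the control response and of the differences between the responses. The part of these cells in the liver-wide result was not tested.

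Most of the response was shared in direction with control liver. The means compared have no array in common with those of control, but both comparisons share the estimate of each gene's spread. Passing in both is therefore not independent. In control 1176 genes passed (6.46%), 599 higher (3.29%) and 577 lower (3.17%). Of the 1283 genes changed in LG2KO, 1242 (96.8%) had the same sign in control. The share with the same sign among all genes tested was not counted. In both genotypes 677 passed, which is 52.8% of the LG2KO calls and 57.6% of the control calls. Among these 677, 676 had the same sign, and the exception was Pklr. The fold changes correlated across genes at a Pearson r of 0.684, and at 0.758 over the 9088 genes above the median level, where genes are not independent replicates. Without LG2KO fasted replicate 3 and control refed replicate 1 the latter was 0.801. Genes that passed in 1 genotype alone are not shown to differ, since the interaction test called Pklr alone. Bcl6 and Rrm2, for example, did not pass in control, and their differences had adjusted p of 0.99 and 0.409.

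**Figure D4:**
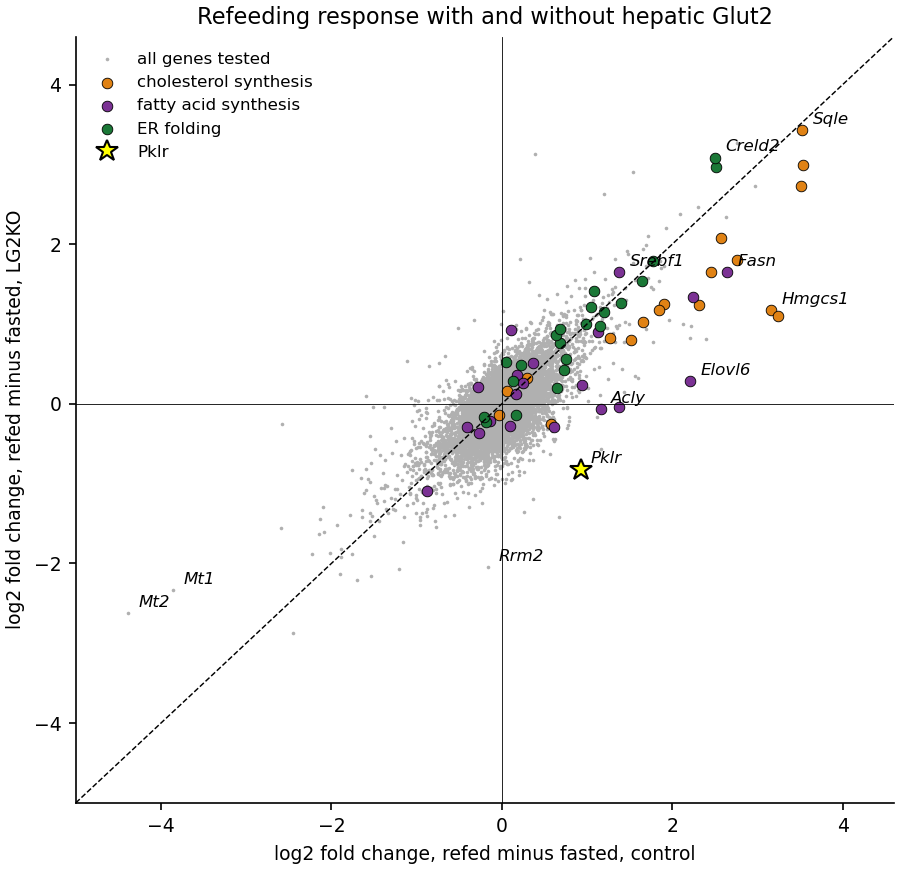
Each point is a gene, with its refeeding log2 fold change in control on the x axis and in LG2KO on the y axis, and the dashed line marks equal change. ER folding genes lie along the line, most cholesterol synthesis genes lie to the right of it, and Pklr (star) lies in the lower right quadrant, at 0.92 in control and -0.82 in LG2KO.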

How the data were processed

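Liver RNA was measured on 12 Affymetrix arrays, 3 in each of 4 groups taken from the titles, genotype and diet labels. The deposited values are log2 expression, 1 per probe set and array, which the authors made with RMA (background correction, quantile normalization and summary of probes) per the submitters' processing notes. The sources used here do not give the software, its version or a genome build. Of 45101 probe sets, the platform's annotation gave 1 symbol to 34958, several to 932, which were left out, and none to 9211. Each symbol was represented by its probe set with the highest mean over the 12 arrays, which left 18194 genes, 9012 with more than 1 probe set. The symbols compared with RefSeq of GRCm38.p6 through Entrez numbers changed in 0 cases. Some genes are not reported here. The number of arrays limits the precision.

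Refeeding was tested in R 4.3.3 with limma 3.58.1, by lmFit and eBayes (trend on). All 12 arrays entered the fit, each group had its own mean, and 8 degrees of freedom were left. The p-values are two-sided, with Benjamini-Hochberg adjustment across the genes of a comparison, and a gene passed where the adjusted p was below 0.05. Errors are standard errors of that fit, and intervals are 95%. The comparisons were refed against fasted in LG2KO, the same in control, and their difference. The fit was tested on simulated data. Values were computed and figures drawn with Python 3.11.15 and matplotlib 3.10.9. Promoters, 250 bases before each start, came from RefSeq (GRCm38.p6).

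The members and the 48 lists (39 pathway and 9 cell marker lists, 868 of 951 entries measured) were chosen with earlier results of these data known. Named are the 15 largest rises and falls that passed with arrays that did not overlap, and that also passed without LG2KO fasted replicate 3, with clone-like symbols left out. Of each list, the first 4 members and, by adjusted p, as many as 6 that passed are named, together with a fixed set of feeding genes. The 257 named genes include 170 that passed in LG2KO, 11 of them with probe sets of both signs. Alternatives were the 6 arrays of a contrast alone, no intensity trend, robust estimation, array weights, bright genes alone, the mean of all probe sets, median centring, the replicate number as a block, and each array left out.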

Additional observations from a re-analysis of the deposited data

Results flagged for a closer look

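Pklr was singled out because its response to refeeding differed between the genotypes by the interaction test of limma. On the log2 scale its level fell by 0.82 in LG2KO and rose by 0.92 in control. The difference between the responses, LG2KO minus control, was -1.75 ± 0.16 (adjusted p = 0.0024 over 18194 genes, n = 3 pools a group). All 3 LG2KO refed arrays lay below all 3 fasted ones, and all 3 control refed arrays lay above all 3 fasted ones.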

How the results depend on the processing

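Of the named genes that passed, 0 had the opposite sign under an alternative tried. The balance of calls in LG2KO turned from more higher to more lower with array weights and without both arrays. Without LG2KO fasted replicate 3 the median changed sign in 6 of 39 gene lists, among them insulin signalling (0.04 to -0.16) and sex-biased genes (0.16 to -0.07). For genes changed by refeeding in LG2KO, array weights gave 3578 (1778 higher and 1800 lower), and leaving out LG2KO fasted replicate 3 and control refed replicate 1 together gave 3187 (1408 higher and 1779 lower), beside 1283 (847 and 436). Leaving out each of the 6 arrays in turn gave 697 to 1507 genes, 471 to 757 higher and 217 to 750 lower. For genes changed by refeeding in control, the 6 control arrays alone gave 695, array weights 2454, both arrays left out 2202, and each array left out in turn 706 to 1467, beside 1176. Genes whose response differed between the genotypes numbered 2 with robust estimation (Pklr and Aacs), 20 with array weights, 1 to 2 with each array left out, and 6 with the replicate block (Pklr, Aacs, Mid1ip1, Me1, Klf10 and Acly), beside 1. The Pklr difference ran from -1.85 to -1.68 with each array left out. With the replicate number as a block, 1291 genes passed in LG2KO (842 higher and 449 lower) and 1165 genes changed by refeeding in control. Same-numbered deviations from the group means correlated at -0.16, 0.16 and 0.36 in LG2KO and at -0.39, -0.04 and -0.38 in control. With 3 arrays a group such deviations depend on each other, so whether the numbers pair the arrays is not settled. Of the 170 named genes that passed, 114 passed whichever array was left out and 56 missed without at least 1, 16 of them without LG2KO fasted replicate 3. The cause of these shifts was not tested. With 3 pools a group and 8 residual degrees of freedom, small changes could be missed, and RMA brings all arrays to a common distribution, so a shift of all genes would not be seen. Signal over background is not given in the deposited values.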
